A study of Mus musculus with 14 samples.

Results

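The 5 genes described here, *Nr5a2*, *Lix1*, *Mmrn1*, *Gsap* and *Ccdc88c*, were selected on the values of endothelial cells (ECs) in 2 libraries of mouse brain nuclei. They are 5 of the 10 genes with the highest ratio of EC transcripts in a library from mutant mice over a library from control mice, and they were picked with that order known. The group is 5 of the 26528 genes in the brain data, and 5 of the 28929 genes in the brain and retina data together. Because this ratio chose the genes, their values in brain ECs are a description without a test, and the retina libraries, which took no part in the choice, carry the only test.

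The study used single-nucleus RNA sequencing (snRNAseq, PIPseq) in mice whose ECs lose TGF-beta signaling. In the brain it served to survey changes of gene expression in ECs, and in the retina to survey which immune cell types were there. Mutant mice (CKO) were *Cdh5CreER;Tgfbr1 CKO/-*, named VEcadCreER;Tgfbr1CKO/- or Tgfbr1-CKO in the sample labels. A Cre that is active in ECs was switched on with 4-hydroxytamoxifen given between P3 and P5, and it deleted the 1 conditional allele of *Tgfbr1*, a TGF-beta receptor gene, beside a null allele. Control mice are labeled wild type. The paper calls its controls wild type by phenotype and names *Cdh5CreER;Tgfbr1 CKO/+* or *Cdh5CreER;Tgfbr2 CKO/+* as typical genotypes for its retinal sections. Whether the sequenced controls carried these alleles or received 4-hydroxytamoxifen is not stated. The tissue was taken at P14. The brain data hold 1 library per genotype, each from vascular fragments of 2 pooled brains that had been enriched by centrifugation through Ficoll. The retina data hold 1 control and 11 CKO libraries, and how many mice stand behind each is not stated. The paper's checklist declares biological replicates for the study without naming these libraries.

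The brain control library held 16649 nuclei and 49798325 unique molecular identifiers (UMIs, 1 per captured transcript), and the brain CKO library 14675 nuclei and 31033373 UMIs. Medians per nucleus were 1541 and 1395 UMIs. The authors' cell type labels mark 2475 control nuclei, with 5801552 UMIs, and 2944 CKO nuclei, with 6851854 UMIs, as ECs. The barcodes of 2 nuclei occur in both libraries. With 1 library per genotype, the 95% intervals given cover only the error of counting, and values that lie outside them set apart 2 libraries, not 2 genotypes.

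*Nr5a2* encodes LRH-1, an orphan nuclear receptor that binds DNA as a monomer and is best known from liver, pancreas, intestine, ovary and early embryo, where it acts on bile acid, cholesterol and steroid metabolism. *Mmrn1* encodes multimerin 1, an EMI-domain glycoprotein stored in platelets and ECs and widely used as a marker of lymphatic endothelium. The other genes encode intracellular proteins: the gamma-secretase activating protein (*Gsap*), Daple, which binds Dishevelled and acts in non-canonical Wnt signaling (*Ccdc88c*), and LIX1, a protein first described in the developing limb.

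*Nr5a2* (GRCm39 chr1:136770303-136888186, minus strand) had 16 UMIs in control ECs and 726 in CKO ECs. Per 1000000 UMIs of the EC nuclei (CPM), this is 2.76 (1.58 to 4.48, exact Poisson) in the control and 106 (98.4 to 114) in the CKO library. The CKO over control ratio was 38.4 (23.5 to 67.6, exact conditional binomial), the highest of the 7924 genes with at least 200 UMIs in ECs of the 2 libraries together. *Mmrn1* (chr6:60901960-60966362, plus strand) had 30 UMIs or 5.17 CPM in control ECs and 348 UMIs or 50.8 CPM in CKO ECs. Its ratio was 9.82 (6.76 to 14.8), the rank of 10 that closes the selection. Control ECs thus held few transcripts of either the receptor gene or the glycoprotein gene.

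On summed counts the intracellular genes lay between these ratios. *Lix1* (chr17:17622934-17679649, plus strand) had 8 UMIs or 1.38 CPM (0.595 to 2.72) in control ECs and 241 UMIs or 35.2 CPM (30.9 to 39.9) in CKO ECs, a ratio of 25.5 (12.7 to 59.8) and rank 2. *Ccdc88c* (chr12:100877782-100995451, minus strand) had 15 and 224 UMIs, or 2.59 and 32.7 CPM, with a ratio of 12.6 (7.50 to 23.0) and rank 8. *Gsap* (chr5:21390983-21520130, plus strand) had 15 and 218 UMIs, or 2.59 and 31.8 CPM, with a ratio of 12.3 (7.30 to 22.4) and rank 9. In each of the 5 genes the Poisson intervals of the libraries were apart, which the choice of the genes fixes. The order of the genes depends on how nuclei are weighted. As a ratio of mean CPM over nuclei, which gives shallow and deep nuclei equal weight, *Ccdc88c* was at 35.7 (rank 3), *Lix1* at 28.5 (rank 4), *Nr5a2* at 18.6 (rank 9), *Gsap* at 13.85 (rank 12) and *Mmrn1* at 8.53 (rank 28), with *Mest* the highest of the 7924 genes.

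The other 5 of the 10 highest ratios belonged to *Mest* (22.7), *Ahr* (14.9), *Tox* (14.5), *Itga2* (14.1) and *Pcdh17* (12.9). The threshold falls within a run of close values: *Gsap* and *Mmrn1* were the last inside it, and *Gpihbp1* (23 and 251 UMIs, ratio 9.24), *Ablim3* (8.91) and *Nckap5* (8.86) the first outside. A ratio above 4 was reached by 47 of the 7924 genes, or 0.593%, all 5 genes described here among them. A ratio above 2 was reached by 422 genes, or 5.33%, and 189, or 2.39%, were below 0.5. Scaling by trimmed means (TMM), which sets aside the most extreme genes, moved every log2 ratio by -0.12.

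In the brain library of CKO mice the level of *Nr5a2* was highest in ECs, at 106 CPM, among the 21 cell type labels. Next came vascular smooth muscle cells (vSMCs) at 19.4 CPM (6.28 to 45.2), on 5 UMIs, whose interval lies below that of ECs. In 11 of the 21 labels no *Nr5a2* UMI was found. In the control library 10 labels were at 0, and the highest levels, 5.17 CPM in vSMCs, 3.80 in the cluster named Glut_20 and 2.76 in ECs, overlapped within counting error. Over all labels other than ECs, *Nr5a2* was at 1.16 CPM in control and 0.744 in CKO nuclei, a ratio of 0.642 (0.353 to 1.12). The higher *Nr5a2* level of the CKO library was therefore found in ECs and not in the sum of the other labels.

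*Mmrn1* was likewise highest in ECs, here in both libraries. In the control the next label, the cluster CP_6 at 1.52 CPM, overlapped the 5.17 CPM of ECs. In the CKO library vSMCs followed ECs at 19.4 CPM, on 5 UMIs, against 1.29 CPM on 2 UMIs in control vSMCs. No *Mmrn1* UMI was found in 15 labels of the control and 13 of the CKO library. Over all labels other than ECs it was at 0.409 and 0.662 CPM, and the ratio of 1.62 (0.772 to 3.36) included 1.

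*Lix1* was in the first place a gene of astrocytes, which had 198 CPM (175 to 223) in control and 210 in CKO nuclei. In the control the clusters Glut_20 (96.8 CPM), Glut_17 (68.7), Glut_0 (67.7), CP_6 (62.7) and Glut_11 (57.0) followed. In the CKO library ECs, at 35.2 CPM, ranked 6, behind astrocytes, CP_6 (66.6), Glut_0 (60.2), Glut_17 (57.2) and Glut_11 (49.5). No *Lix1* UMI was found in 5 control and 6 CKO labels. Over all labels other than ECs, *Lix1* was at 42.0 CPM in control and 36.9 in CKO nuclei, with a ratio of 0.878 (0.809 to 0.951). ECs thus stood at the low end of the *Lix1* levels in the control library and at rank 6 of the 21 labels in the CKO library. In either library they were below the level of astrocytes.

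*Gsap* had 3 glial labels far above the rest in the control: astrocytes at 236 CPM, oligodendrocyte precursors (OPCs) at 206 and microglia at 138, with Glut_14 next at 17.02 CPM and no overlap. In the CKO library astrocytes were at 247 CPM, microglia at 205 (3 UMIs in 11 nuclei) and OPCs at 163. ECs followed as number 4, at 31.8 CPM. Outside ECs the ratio of *Gsap* was 0.767 (0.670 to 0.876), from 16.98 and 13.03 CPM. The level in CKO ECs therefore exceeded the mean of the other labels but stayed under the levels of these 3 labels.

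*Ccdc88c* was highest in CP_6, at 356 CPM in control and 450 in CKO nuclei. In the control OPCs (110), GABA_9 (97.3) and astrocytes (96.2) came next, and in the CKO library GABA_9 (148) and Glut_17 (112). CKO ECs, at 32.7 CPM, ranked 10, behind among others OPCs at 52.7 and astrocytes at 41.5 CPM. Outside ECs *Ccdc88c* was at 59.7 CPM in control and 68.2 in CKO nuclei, with a ratio of 1.14 (1.07 to 1.22). The high ratio in ECs thus began from a level, 2.59 CPM, that was low for this gene and ended under its mean over the other labels.

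**Figure D1:**
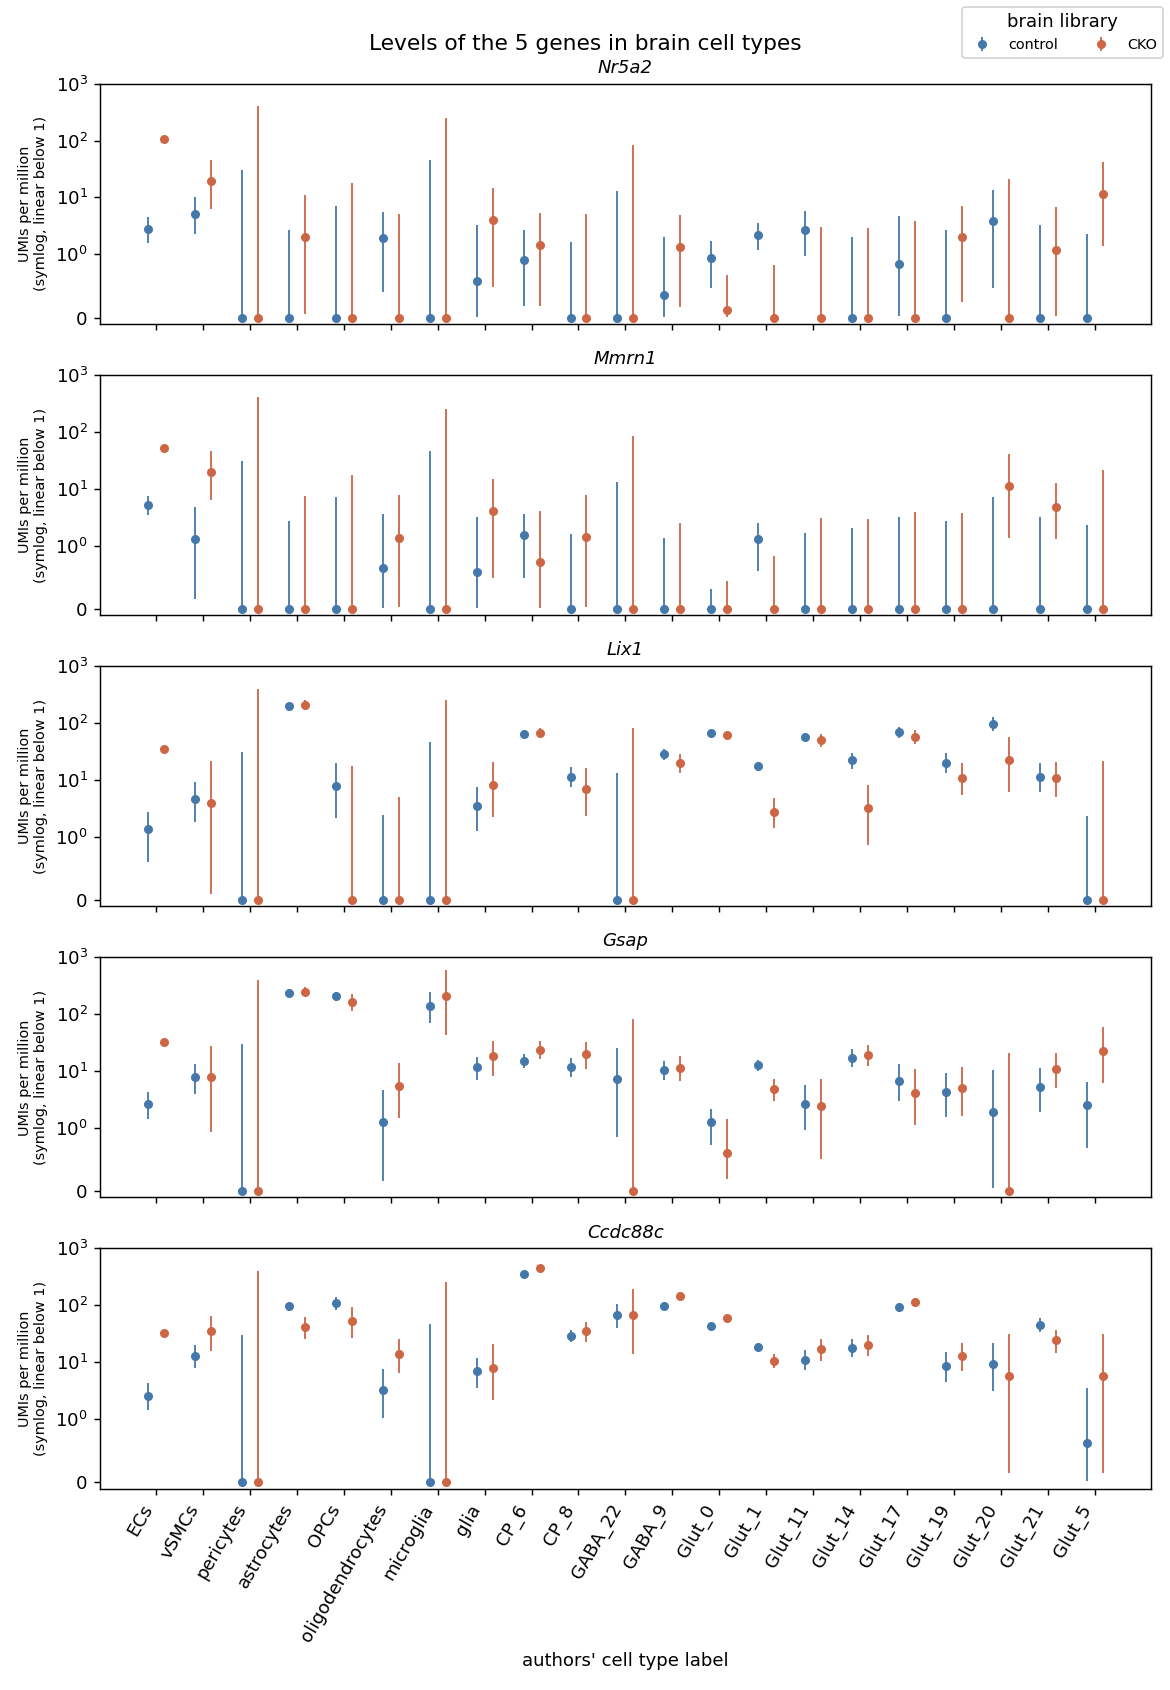
Level of each gene in every brain cell type label (CPM within the label, symmetric log axis) in the control and the CKO library, with 95% exact Poisson intervals for counting error. In ECs the CKO point lies above the control point in each panel, and only for *Nr5a2* and *Mmrn1* is the CKO EC point the highest of its panel.

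Single labels other than ECs were counted by whether the interval of their ratio held 1. For *Nr5a2* it did in 11 labels, while 1 was higher and 2 lower in the CKO library. For *Mmrn1* the counts were 6, 1 and 1, for *Lix1* 11, 0 and 4, for *Gsap* 17, 1 and 1, and for *Ccdc88c* 9, 5 and 4. The labels not counted had no UMI of the gene in either library. For the 5 genes together this is 8 higher and 12 lower of 74 pairs of gene and label, while over all genes with a UMI in the label 7.44% were higher and 7.6% lower. An interval apart from 1 is more frequent where a gene has more UMIs: with at least 20 in the label the counts were 4 and 9 of 35, against 12.5% and 15.7% of all genes. Between these 2 libraries such intervals are thus frequent among all genes, and the counts are a description. Nuclei labeled pericytes, 201 in control and 22 in CKO nuclei, had no UMI of any of the 5 genes. A count of 0 allows up to 30.3 CPM in the control pericytes but 400.4 CPM in the CKO pericytes (exact Poisson), so levels like those of CKO ECs were not detectable in CKO pericytes.

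The part of each gene's brain transcripts that lay in ECs separates the genes in the same way. ECs held 23.9% of the 67 *Nr5a2* UMIs in the control library and 97.6% of the 744 in the CKO library. For *Mmrn1* the share was 62.5% of 48 and 95.6% of 364 UMIs. For *Gsap* it was 1.97% of 762 and 40.9% of 533, for *Lix1* 0.431% of 1855 and 21.3% of 1132, and for *Ccdc88c* 0.568% of 2641 and 11.95% of 1874. ECs held 11.7% of all UMIs of the control and 22.1% of the CKO library. *Ccdc88c* in CKO ECs thus remained below the share that ECs had of all transcripts, and *Lix1* was close to it.

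The transcripts were spread over a minority of EC nuclei. In the CKO library 18.1% of EC nuclei had at least 1 UMI of *Nr5a2*, against 0.606% in the control, at medians of 1491 and 1347 UMIs per nucleus. In nuclei of all other labels, with medians of 1368 and 1579 UMIs, the share was 0.128% in the CKO and 0.296% in the control library. Of the 532 CKO EC nuclei with *Nr5a2*, 403 had 1 UMI, 90 had 2 and 39 had 3 or more, up to 7. *Nr5a2* was thus above its level in other nuclei in CKO ECs, and mostly at 1 captured UMI in the nuclei where it was detected.

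*Mmrn1* was found in 1.21% of control and 9.48% of CKO EC nuclei, against 0.0847% and 0.111% of other nuclei. For *Lix1* the shares were 0.283% and 6.62% of EC nuclei against 9.53% and 6.51% of other nuclei. *Gsap* was in 0.566% and 6.01% of EC nuclei against 4.17% and 2.34% of other nuclei. *Ccdc88c* was in 0.485% and 6.35% of EC nuclei against 11.95% and 9.97% of other nuclei. For the 3 intracellular genes the other labels include cells that express them, so these shares are no measure of free RNA. In the control, ECs held a far smaller share of nuclei with these genes than the other labels did.

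To compare the libraries at equal depth, each EC nucleus was thinned to 1000 UMIs, which left 1470 control and 1889 CKO nuclei and left out 1005 and 1055 shallower ones. *Nr5a2* then remained in 1 control nucleus (0.0680%) and 192 CKO nuclei (10.2%). *Mmrn1* remained in 7 (0.476%) and 74 (3.92%), *Lix1* in 4 (0.272%) and 63 (3.34%), *Ccdc88c* in 1 (0.0680%) and 57 (3.02%), and *Gsap* in 3 (0.204%) and 50 (2.65%). At least 1 of the 5 genes was detected in 14 control nuclei (0.952%) and 382 CKO nuclei (20.2%). The direction of these differences is fixed by the choice of the genes.

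The genes differed in which EC nuclei held them. In a description added after seeing the data, CKO EC nuclei were divided by their UMIs into bins of 343 nuclei under 500 UMIs, 712 from 500, 691 from 1000, 724 from 2000 and 474 from 4000 upward. Across these bins *Nr5a2* was detected in 6.41%, 7.44%, 16.5%, 24.6% and 34.8% of nuclei, and its level was 164, 122, 129, 117 and 86.2 CPM. *Mmrn1* was detected in 2.33%, 5.48%, 6.37%, 11.2% and 22.6%, at 57.2, 78.6, 47.5, 45.7 and 50.4 CPM. The level of *Nr5a2* was thus at its lowest in the deepest nuclei, and that of *Mmrn1* had no such order.

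*Lix1* and *Ccdc88c* were instead found in deep nuclei. *Lix1* was in 0 of the 343 nuclei of the lowest bin (exact binomial upper limit 1.07%) and then in 0.843%, 2.89%, 9.12% and 21.7%, at 0, 13.8, 21.2, 40.8 and 40.9 CPM. *Ccdc88c* was in 0, 0.281%, 3.04%, 8.56% and 21.5%, at 0, 3.93, 22.2, 33.0 and 41.8 CPM. *Gsap* was in 2.92%, 1.69%, 4.20%, 6.49% and 16.7%, at 71.5, 29.5, 33.3, 28.2 and 32.3 CPM. The *Nr5a2* level was highest in the shallowest and lowest in the deepest nuclei, without a steady order between, while those of *Lix1* and *Ccdc88c* increased with depth. The part of depth in these levels was not tested. All 15 control EC UMIs of *Ccdc88c* lay in 12 nuclei with at least 4000 UMIs.

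**Figure D2:**
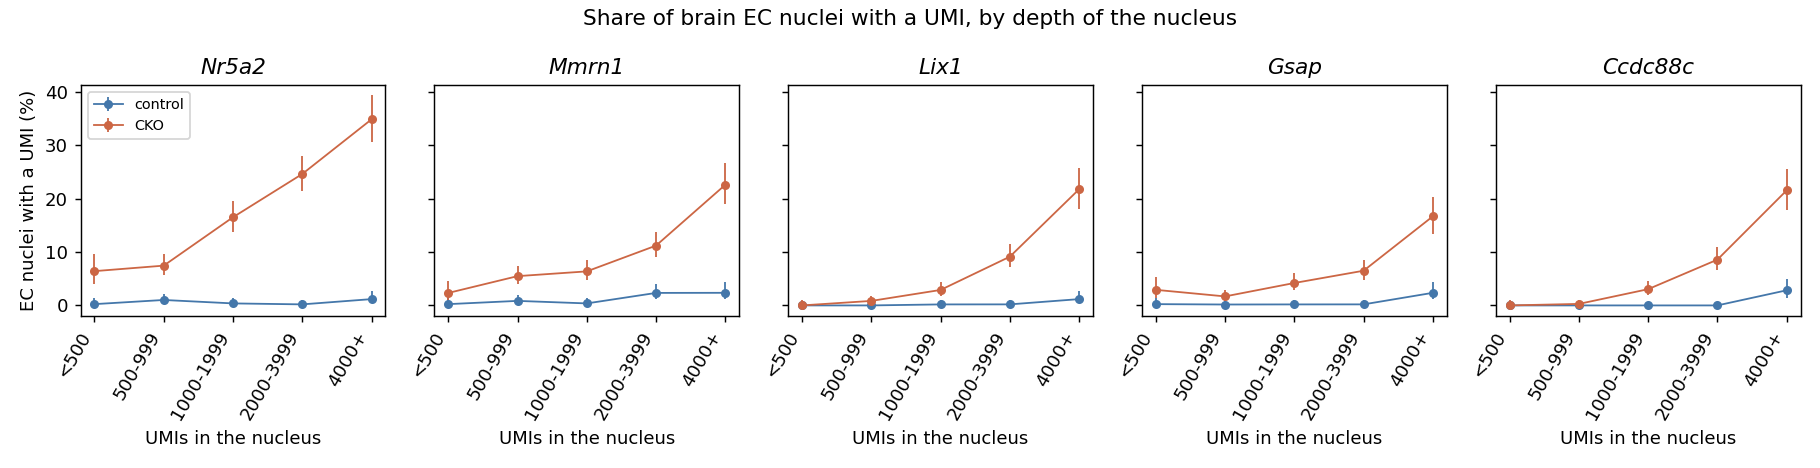
Share of EC nuclei with at least 1 UMI of each gene (percent, 95% exact binomial intervals) by the UMIs of the nucleus, for the control and the CKO library. CKO shares increase with depth from 6.41% to 34.8% for *Nr5a2* and from 0 to 21.5% for *Ccdc88c*.

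The label of the nuclei was checked against marker genes. All 9 of 9 EC markers were found in EC nuclei of both libraries, at a summed 12077 CPM in control and 9227 CPM in CKO nuclei, led by *Flt1* (3982 and 2745 CPM). The 8 pericyte markers were also found there, 8 of 8, at 8390 and 7127 CPM, led by *Rgs5* (5631 and 4831 CPM). At least 1 pericyte UMI was in 85.3% of control and 95.5% of CKO EC nuclei. EC nuclei of both libraries thus carried pericyte transcripts, and the 5 genes were described in nuclei without any such UMI.

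Those nuclei were 363 in control and 133 in CKO nuclei. Among them *Nr5a2* had 2 and 14 UMIs, a ratio of 20.6 (4.74 to 187), *Gsap* 1 and 12 UMIs, a ratio of 35.4 (5.23 to 1511), and *Mmrn1* 4 and 6 UMIs, a ratio of 4.42 (1.05 to 21.3). *Lix1* and *Ccdc88c* gave no ratio, and the intervals of the other 3 held the ratio over all EC nuclei. After thinning to 1000 UMIs, *Nr5a2* was in 185 of 1862 CKO EC nuclei with a pericyte UMI (9.94%) and in 7 of 27 without (25.9%), a ratio of shares of 0.383 (0.182 to 0.967). For *Lix1*, *Mmrn1* and *Ccdc88c* that interval held 1, and *Gsap* was in 0 of the 27 nuclei. The *Nr5a2* ratio of the chosen draw is low: over all possible draws it was 0.876, and on 500 UMIs 0.606 (0.363 to 1.07). *Gsap* had 0.319 (0.143 to 0.806) on 500 UMIs. On 2000 UMIs only 8 nuclei lacked a pericyte UMI, and *Nr5a2* was at 0.455 (0.15 to 2.22) and *Gsap* at 0.22 (0.058 to 1.84). Over all genes found in at least 50 nuclei, the interval was below 1 for 2.02% on 1000 UMIs and 6.06% on 500. In vSMCs, where *Nr5a2* and *Mmrn1* ranked next, the EC markers were at 5716 CPM in control and 5636 in CKO nuclei, led by *Ptprb*. The part of EC transcripts in the vSMC values was not tested.

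Markers of other cell types were lower in EC nuclei. Of 4 vSMC markers 3 were found, at 93.6 CPM in control and 90.6 in CKO nuclei, with *Cnn1* at 0. Fibroblast markers were at 614 and 434 CPM, led by *Col1a2*, and oligodendrocyte markers at 44.8 and 43.6. Astrocyte markers were at 198 and 161 CPM, OPC markers, led by *Cspg4*, at 198 and 170, and neuronal markers at 168 and 123. Of 4 immune markers 3 were found, at 7.76 and 12.1 CPM, with *Cd3e* at 0. Lymphatic markers, led by *Flt4*, were at 111 and 56.9 CPM. With the exception of the immune list, each of these sums was lower in the CKO library, by little for the vSMC and oligodendrocyte markers. The part of such transcripts in the levels of the 5 genes was not tested.

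Single genes that bear on the libraries were described too. *Tgfbr1*, the deleted gene, had 401 and 431 UMIs in ECs, or 69.1 and 62.9 CPM, a ratio of 0.910 (0.793 to 1.05) that included 1. Transcripts are captured at their 3′ end and counted per gene whether or not the deleted stretch is in them, so this value is no check of the knockout. *Tgfbr2*, which encodes the partner receptor, had a ratio of 1.87 (1.78 to 1.97). *Xist*, the RNA of the inactive X chromosome, was at 2247 CPM in control and 0.292 CPM in CKO ECs, so genotype and sex cannot be told apart in the brain libraries.

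Whether the genes were found in the same nuclei was described in the thinned CKO ECs by the number of nuclei with a pair of genes over the number given by the product of their shares. Of 1889 nuclei, 1507 had none of the 5 genes, 332 had 1, 46 had 2, 4 had 3 and 0 had more. The 50 nuclei with 2 or more compare with 33.7 from the product, a ratio of 1.48 (1.10 to 1.95, exact Poisson). The ratio was 1.14 (0.639 to 1.88) on thinning to 500 UMIs, 1.13 (0.915 to 1.39) on thinning to 2000, and 1.12 (0.994 to 1.25) without thinning within 10 depth strata. The mean over all possible draws at 1000 UMIs was 1.37. Over all alternatives the ratio ranged from 1.12 to 1.59. The 1.48 of the chosen draw is thus toward the high end, and at 500 and 2000 UMIs and within depth strata the interval held 1.

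Of the 10 pairs, *Nr5a2* with *Mmrn1* alone had an interval above 1, with 15 nuclei against 7.52, a ratio of 1.99 (1.12 to 3.29) in the chosen draw. Over all possible draws the ratio of this pair was 1.33, below those of *Gsap* with *Ccdc88c* (2.26), *Mmrn1* with *Ccdc88c* (2.11), *Nr5a2* with *Gsap* (1.84) and *Nr5a2* with *Lix1* (1.55), so which pair stands out depends on the draw. At 2000 UMIs this pair had 32 nuclei against 19.4, or 1.65 (1.13 to 2.33), and within depth strata 88 against 69.9, or 1.26 (1.01 to 1.55). At 500 UMIs it had 3 nuclei against 3.93, which is too few to read. The intervals of the other 9 pairs held 1 at 1000 UMIs, and within depth strata *Nr5a2* with *Gsap* reached 69 against 47.7, or 1.45 (1.13 to 1.83). In the control, 2 nuclei held 2 genes, both with *Gsap*, against 0.061 from the product, a ratio of 32.8 (3.97 to 118). There were 0 such control nuclei on 500 UMIs and 1 on 2000. These are very few nuclei, but co-detection above the product was thus not found in the CKO library alone. Most nuclei that held 1 of the genes thus held no other of them at this depth.

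**Figure D3:**
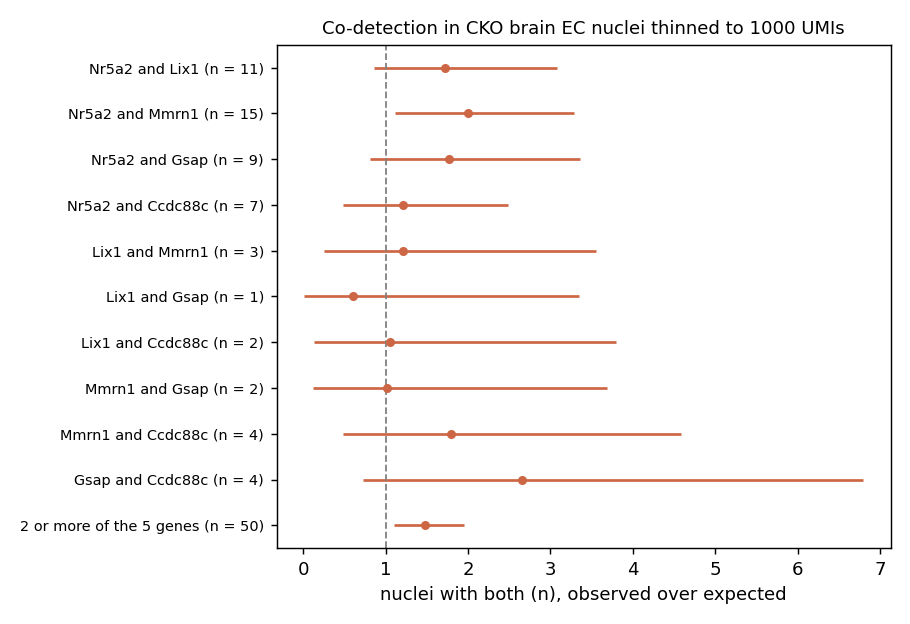
Nuclei with both genes of a pair, observed over expected from the product of the single shares, in CKO EC nuclei thinned to 1000 UMIs, with 95% exact Poisson intervals and the number of nuclei. Only *Nr5a2* with *Mmrn1* (n = 15) and nuclei with 2 or more genes (n = 50) lie above the dashed line at 1 with their interval in this draw, and over all possible draws their ratios are 1.33 and 1.37.

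Co-detection with *Nr5a2* was also described for other genes. Over 2233 genes found together with *Nr5a2* in at least 20 of its 192 nuclei, a minimum that favors high ratios, the ratio had a median of 1.05 and lay between 0.793 and 1.45 from the 5th to the 95th percentile. The highest were *N4bp2* (2.39, 24 nuclei), *Piezo2* (2.27, 63 nuclei), *Trp53i11* (2.24, 30 nuclei), *Trabd2b* (2.08, 27 nuclei) and *Vcpip1* (2.06, 22 nuclei). Of these, *Piezo2* had an EC ratio of 3.72 and *Vcpip1* of 0.963, so a high co-detection with *Nr5a2* did not go with a high ratio in each. Among the other high-ratio genes *Pcdh17* had 1.80 (1.30 to 2.43, 43 nuclei), *Mest* 1.60, *Itga2* 1.195, and *Ahr* and *Tox* 1.06 each. The EC markers lay between 0.903 for *Ptprb* and 1.22 for *Erg*.

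More CKO EC nuclei carried transcripts of dividing cells. *Mki67*, a proliferation antigen, was at 35.0 CPM in control and 80.1 in CKO ECs, and *Top2a*, a DNA topoisomerase of dividing cells, at 115 and 243. At least 1 UMI of either was in 245 of 2475 control EC nuclei (9.90%) and 783 of 2944 CKO EC nuclei (26.6%). These cycling nuclei were deeper, with medians of 2864 and 2612 UMIs against 1260 and 1258 in the other EC nuclei. The genes are therefore compared after thinning.

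Among 627 cycling and 1262 other CKO EC nuclei thinned to 1000 UMIs, *Nr5a2* was in 10.7% and 9.90%, a ratio of shares of 1.08 (0.790 to 1.46). The ratio was 1.41 (0.822 to 2.40) for *Lix1*, 1.37 (0.833 to 2.23) for *Mmrn1*, 1.04 (0.542 to 1.92) for *Gsap* and 1.46 (0.828 to 2.55) for *Ccdc88c*. Any of the 5 genes was in 23.1% of cycling and 18.8% of other nuclei, or 1.23 (0.995 to 1.52). At this depth no gene's share differed with the cycling state beyond counting error. On thinning to 500 UMIs the ratio was 1.44 (1.13 to 1.83) for any of the 5 and 1.69 (1.18 to 2.40) for *Nr5a2*, and on thinning to 2000 it was 1.26 (1.04 to 1.53) for any and 2.07 (1.30 to 3.34) for *Ccdc88c*. Cycling nuclei thus held the genes as often as other nuclei or somewhat more often, depending on the depth compared. Over all UMIs without thinning, *Mmrn1* was at 62.5 CPM (53.4 to 72.6) in cycling and 43.1 (37.0 to 49.9) in other CKO EC nuclei, and *Ccdc88c* at 42.6 (35.2 to 51.1) and 26.2 (21.5 to 31.6), with intervals apart for both. The share of all genes with intervals apart by cycling state was not counted, so whether these genes exceed it is not known. The part of the greater depth of cycling nuclei in the unthinned levels was not tested. For *Nr5a2* these levels were 111 and 103 CPM, for *Lix1* 36.8 and 34.1, and for *Gsap* 35.6 and 29.3. UMIs of each of the 5 genes were thus found outside the cycling nuclei too.

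Within CKO ECs the genes were also described by markers of vessel types. With arterial markers (1423 nuclei with and 466 without), venous markers (1048 and 841) and lymphatic markers (806 and 1083), the ratio of shares had an interval that held 1 for each gene at 1000 UMIs. For *Nr5a2* the ratios at this depth were 1.33, 0.891 and 1.02. At other depths the interval was below 1 for *Mmrn1* (0.600) and *Gsap* (0.459) with arterial markers on 500 UMIs. It was above 1 on 2000 UMIs for *Mmrn1* with venous (1.64) and *Nr5a2* with lymphatic markers (1.36). Of all genes found in at least 50 of the nuclei, 7.65% were below 1 with arterial markers on 500 UMIs. On 2000 UMIs 1.67% were above 1 with venous and 2.04% with lymphatic markers. Capillary markers were in 1875 nuclei and missing from only 14, too few to compare. A nucleus could count for several marker lists, so these splits do not sort nuclei by vessel type. In CKO ECs the lymphatic list was led by *Nrp2* (2287 UMIs), while *Prox1* had 17, *Lyve1* 24 and *Pdpn* 15 UMIs. Markers of tip cells, the ECs that lead a growing sprout, were in 1269 nuclei and absent from 620.

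*Nr5a2* was in 11.3% of nuclei with a tip marker and 7.74% of those without, a ratio of 1.47 (1.05 to 2.08). *Gsap* was in 45 (3.55%) and 5 (0.807%), a ratio of 4.40 (1.75 to 14.2). *Lix1* was less often found with a tip marker, in 2.68% against 4.68%, or 0.573 (0.339 to 0.975). *Mmrn1* had 1.52 (0.880 to 2.75) and *Ccdc88c* 1.15 (0.637 to 2.16). These nuclei had similar medians of 2504 UMIs with and 2542 without a tip marker. Over all genes found in at least 50 of the nuclei, the interval was above 1 for 3.42% and below 1 for 3.55%. In alternatives chosen after seeing the data, the ratio for *Nr5a2* was 1.33 (0.936 to 1.89) on 500 UMIs, 1.42 (0.911 to 2.32) on 2000 and 1.235 over all possible draws at 1000. For *Lix1* it was 0.651 (0.299 to 1.36), 0.620 (0.374 to 1.07) and 0.613, and for *Gsap* 3.39 (1.56 to 8.13), 2.68 (0.995 to 10.1) and 2.81. For *Nr5a2* and *Lix1* the interval thus held 1 at either other depth, and for *Gsap* at 2000 UMIs.

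Genes known to act with the 5 genes were described in ECs by lists, counting those with at least 200 UMIs. Over all 7924 genes the median log2 ratio was 0.12, with 5.33% above 2 and 2.39% below 0.5, against which the counts of each list below stand. Of 27 partners and targets of LRH-1, 7 were measured, 0 had a ratio above 2 or below 0.5, and the median was -0.26. Below this minimum, *Nr1h4*, a bile acid receptor gene, had 15 and 35 UMIs, and *Ccne1*, the cyclin E1 gene, had 2 and 27, a ratio of 11.4 (2.87 to 99.2). Both are examples given with their values known. The part of cycling nuclei in the *Ccne1* ratio was not tested.

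Of 14 genes of gamma-secretase and its substrates 11 were measured, with 0 above 2, 0 below 0.5 and a median of 0.05. Of 26 genes of the Daple family and non-canonical Wnt signaling 15 were measured and *Dvl1*, a Dishevelled gene, had a ratio of 2.04. *Ccdc88a*, the paralog of *Ccdc88c*, had 1.54, and the median was 0.04. Of 8 EMI-domain glycoproteins and their receptors 6 were measured. *Clec14a*, an EC receptor of multimerin 2, had 2.46 and *F5*, coagulation factor V, 0.153, with 1.31 for *Mmrn2*, 1.66 for *Cd93* and a median of 0.22. Of 9 genes of the LIX1 family and YAP signaling 8 were measured, 0 past either limit, with *Lix1l* at 1.26 and a median of -0.04. Genes of these lists with under 200 UMIs whose ratio was past a limit with its interval apart from 1 were *Dvl2* (2 and 21 UMIs, 8.89, 2.17 to 78.2), *Fzd3* (25 and 73 UMIs, 2.47, 1.55 to 4.07) and *Gnai1* (93 and 37 UMIs, 0.337, 0.224 to 0.498), named after their values were seen.

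Lists of EC types gave the vessel context. Of 11 lymphatic genes 5 were measured, with *Nrp2* at 2.94 and *Reln* at 0.360, and *Lyve1*, with 54 and 24 UMIs, was at 0.376 (0.223 to 0.619). Of 9 venous genes 6 were measured and of 12 arterial genes 11, 0 past either limit, both with a median of -0.04. Under the minimum, the venous gene *Ackr1* had 21 and 153 UMIs, a ratio of 6.17 (3.90 to 10.3). *Lyve1* and *Ackr1* were named after their values were seen. Of 10 tip cell genes 8 were measured, again 0 past either limit, with a median of -0.03. All 8 capillary genes were measured, with *Mfsd2a*, a lipid transporter of the blood-brain barrier, at 0.468, *Tfrc*, the transferrin receptor, at 0.333 and a median of -0.74. Of 12 cycling genes 11 were measured, 7 above 2 and 0 below 0.5, with a median of 1.09. Among genes with at least 200 UMIs, ratios above 2 were thus most frequent in the cycling list. Ratios below 0.5 were found for 2 of 8 capillary, 1 of 5 lymphatic and 1 of 6 EMI-domain list genes, counts too small to rank.

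The genes with the most similar pattern were sought over 38 profiles, each 1 label in 1 brain library with at least 100000 UMIs, by Pearson's correlation of log2(CPM + 1). The profiles share 2 libraries, so no p is given. They include the EC profiles of both libraries, whose ratio chose the genes. For *Nr5a2* these were *Gimap8* (0.739), *Gbp8* (0.737), *Zfp69* (0.725), *Hyal2* (0.717) and *Gpihbp1* (0.717), and for *Mmrn1* *Gpihbp1* (0.897), *Cnpy4* (0.861) and *Sox7* (0.842). For *Lix1* they were *Gabrb1* (0.763), *Tpgs2* (0.729) and *Camk2g* (0.707), for *Gsap* *Hdac8* (0.754), *Ptprz1* (0.734) and *Phka1* (0.721), and for *Ccdc88c* *Ralgps2* (0.736), *Arhgef26* (0.704) and *Ccdc66* (0.682). Among the 5 genes themselves the correlation was 0.659 for *Nr5a2* with *Mmrn1*, 0.545 for *Lix1* with *Ccdc88c* and 0.482 for *Gsap* with *Ccdc88c*. The other 7 pairs lay between -0.0876 and 0.152. Over these 38 profiles the 5 genes thus did not share 1 pattern. The part of the EC profiles in each correlation was not tested, so the values are a description.

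The retina was used to describe the genes in libraries that took no part in their choice. The control library held 11513 nuclei and 30989702 UMIs, and the CKO libraries from 104 nuclei (90449 UMIs, library 4) to 18862 nuclei (55803724 UMIs, library 5). There are 11 cell type labels, with no EC label among them. Of 77676 barcodes, 20 nuclei share theirs with another library, as 10 pairs. The authors' metadata place the control and CKO libraries 1 to 3 in batch 1, 4 and 5 in batch 2 and 6 to 11 in batch 3, and CKO libraries 8 to 11 were made with version 5 of the kit in place of version 4.

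*Gsap* was at 324 CPM in Müller glia (label MG) of the control, and at 260, 328 and 419 CPM as the lowest, median and highest of 10 CKO libraries. In immune cells it was at 245 CPM in the control and at 85.0, 207 and 418 CPM. Retinal astrocytes, with enough nuclei in 4 CKO libraries only, had 73.2, 81.0 and 126 CPM. Horizontal cells (HC) had 10.7 CPM in the control against 4.83, 26.3 and 42.9 CPM, and glycinergic amacrine cells (Gly_AC) 18.1 CPM against 7.56, 11.0 and 17.3 CPM. The control was inside the CKO range in 9 of 10 labels and above it in glycinergic amacrine cells. Over the 10 labels, the control was above the range in 4.25% and below it in 6.85% of all fits of genes that passed the filter of the test below, and in glycinergic amacrine cells in 4.803% and 8.78%. In these libraries *Gsap* was thus high in Müller glia and in immune cells.

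*Ccdc88c* was at 78.9 CPM in rod bipolar cells (RBC) of the control and at 55.4, 77.6 and 103 CPM in the CKO libraries. In cone bipolar cells (CBC) it was at 54.4 CPM against 49.9, 59.9 and 68.0 CPM. The control was below the CKO range in 3 labels: Müller glia (43.0 CPM against 43.9, 59.5 and 72.1), glycinergic amacrine cells (17.8 against 18.2, 21.3 and 28.4) and retinal ganglion cells (RGC; 14.01 against 14.09, 19.37 and 110.7). The 110.7 CPM are 4 UMIs of CKO library 4, which had 25 ganglion cell nuclei with 36147 UMIs. Of all genes that passed the filter the control was below the range in 9.18% in Müller glia, 8.78% in glycinergic amacrine cells and 2.94% in ganglion cells.

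*Lix1* was highest in retinal astrocytes, at 177, 190 and 217 CPM in the 4 CKO libraries that could be used. The control was inside the CKO range in 7 of 10 labels and above it in 3. These were cone bipolar cells (31.9 CPM against 10.3, 17.6 and 29.7), glycinergic amacrine cells (26.0 against 16.4, 18.8 and 24.7) and Müller glia (11.3 against 0.728, 5.49 and 7.97). In GABAergic amacrine cells (GABA_AC) it was at 23.1 CPM against 14.3, 18.6 and 33.0 CPM. Of all genes that passed the filter the control was above the range in 4.48% in cone bipolar cells, 4.803% in glycinergic amacrine cells and 5.20% in Müller glia. A single library on the control side sets these positions, and the counts of the 5 genes are a description.

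*Nr5a2* and *Mmrn1* were near 0 in the labeled retinal cells. The highest median over CKO libraries was 1.497 CPM for *Nr5a2*, in ganglion cells, and 0.589 CPM for *Mmrn1*. For *Nr5a2* the control was above the CKO range in cones (1.84 CPM on 2 UMIs, against a highest value of 1.60) and inside it in the other 9 labels, and for *Mmrn1* inside it in 10 of 10. Over all genes with a UMI in the label the control was above the range in 6.27% and below it in 3.74%, and above it in 7.28% in cones. In ganglion cells of CKO library 4, 1 UMI of either gene made 27.7 CPM. The next *Nr5a2* levels were 8.01 CPM in immune cells of library 3 and 6.66 CPM in astrocytes of library 1, each on 1 UMI, and 7.09 CPM (4.06 to 11.5) in ganglion cells of library 9, on 16 UMIs over 106 nuclei with a median of 20042 UMIs.

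**Figure D4:**
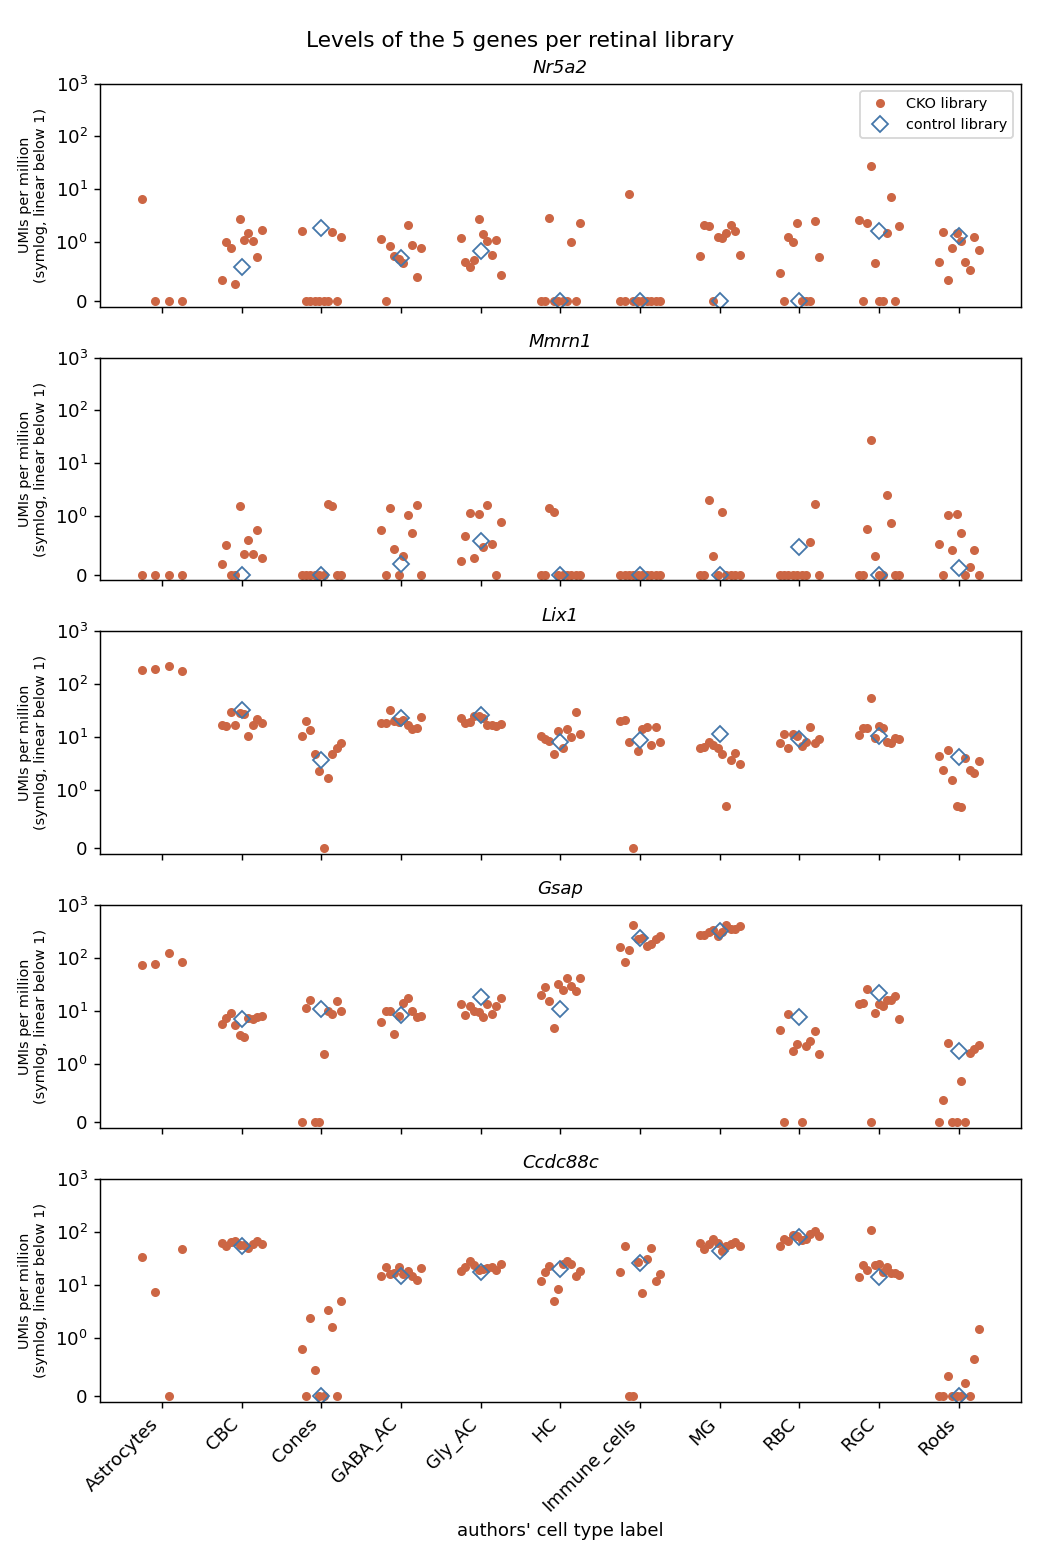
Level of each gene per retinal cell type label and library (CPM, libraries with at least 20 nuclei of the label), with diamonds for the control and dots for CKO libraries. *Gsap* is highest in Müller glia, with the control at 324 CPM, and *Nr5a2* and *Mmrn1* lie near 0 in most labels and libraries, with 27.7 CPM in ganglion cells of CKO library 4 as their highest value.

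The genotype was tested in 10 retinal labels with edgeR's quasi-likelihood test on UMIs summed per library and label, with the kit version as covariate. Libraries needed 20 nuclei of the label, which left 10 CKO libraries in each label, or 11 in ganglion cells. Retinal astrocytes could not be tested, with 12 control nuclei. After the filter on low counts, *Gsap* was tested in 10 labels, *Lix1* in 9, *Ccdc88c* in 7, *Nr5a2* in 1 and *Mmrn1* in 0. Of these 27 fits 0 passed an adjusted p of 0.05 by edgeR, 1 had an unadjusted p under 0.05, and DESeq2 gave the same counts of 0 and 1. The lowest adjusted p was 0.883.

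The background was low as well. In edgeR's test the share of all genes called was 0.0104% in cones, 0.00676% in GABAergic amacrine cells, 0.00726% in glycinergic amacrine cells and 0.0077% in Müller glia, 1 gene in each, and 0% in the other 6 labels. The 4 calls, named here after their values were seen, were *Gm17167* in cones, GABAergic amacrine cells and Müller glia, lower in CKO, and *Adamts19* in glycinergic amacrine cells, higher. Over all labels edgeR had 3630 of 121773 fits at an unadjusted p under 0.05, and DESeq2 called 1106, none of them of the 5 genes. With a single control library, whose spread is taken from the CKO libraries, a low count of calls does not show that the genotypes were alike.

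The fitted log2 differences of CKO over control ran from -1.77 to 1.14. The smallest unadjusted p, 0.0336 in edgeR, was that of *Gsap* in glycinergic amacrine cells, with a log2 difference of -0.84 (SE 0.35) and an adjusted p of 1.00. The unadjusted p was 0.0387 with DESeq2, 0.0323 without a filter, 0.0406 without covariate, 0.120 with batch as covariate, 0.0747 in the control's batch alone and 0.0517 without CKO libraries 4 and 5. In Müller glia the log2 difference was 0.42 (SE 0.26, edgeR adjusted p = 0.883) for *Ccdc88c*, -0.84 (SE 0.59, 0.883) for *Lix1* and -0.16 (SE 0.17, 0.940) for *Gsap*. *Nr5a2* was tested in ganglion cells only, at -0.42 (SE 1.53, adjusted p = 1), and passed the filter there through CKO library 4, where it has 1 UMI: without that library, an alternative chosen after seeing the data, it was tested in 0 labels. Its fit is therefore not read. None of the differences named here passed the adjusted threshold.

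Because ECs have no retinal label, nuclei with UMIs of at least 3 of the 9 EC markers were taken from any label. They were 5 in the control and from 0 to 11 in each CKO library, 46 over the CKO libraries. No test was made because only 2 CKO libraries held at least 10. They were deep nuclei, with a median of 31186 UMIs in the CKO libraries against 1914 in the other CKO nuclei. In the CKO libraries their labels were GABAergic amacrine cells (11), ganglion cells (11), horizontal cells (8), Müller glia (8) and others. They are therefore nuclei with EC transcripts and not a set of ECs.

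In these 46 nuclei *Nr5a2* had 9 UMIs or 4.73 CPM (2.16 to 8.98), against 0.930 CPM in the other CKO nuclei. *Mmrn1* had 7 UMIs or 3.68 CPM (1.48 to 7.58) against 0.396 CPM. *Gsap* was at 61.0 against 28.0 CPM, *Ccdc88c* at 33.6 against 27.8 and *Lix1* at 13.14 against 13.02. Of the *Nr5a2* and *Mmrn1* UMIs, 7 and 6 lay in 3 nuclei of CKO library 8, which had UMIs of 6, 5 and 8 of the EC markers. In the 5 control nuclei *Gsap* had 1 UMI and the other genes had 0, which allows up to 54.1 CPM at this depth. Library 8 was left out after its values were seen, as the library with the most *Nr5a2* UMIs of the 46 CKO nuclei. A lower *Nr5a2* level without it is therefore built in. Without it, 35 nuclei had *Nr5a2* at 1.43 CPM (0.174 to 5.18) and *Mmrn1* at 0.717 CPM (0.0182 to 4.00). Both intervals held the level of the other nuclei. With at least 2 EC markers and without library 8, also chosen after seeing the data, 484 nuclei had *Nr5a2* at 1.36 CPM (0.705 to 2.38) against 0.932 in the others. *Mmrn1* was then at 1.25 CPM (0.624 to 2.24), from 11 UMIs in 8 libraries, against 0.358. In the control, 53 nuclei with at least 2 EC markers had 0 UMIs of *Nr5a2* and *Mmrn1*, which allows up to 4.53 CPM. There *Gsap* was at 41.8 CPM (28.9 to 58.4) against 83.5 in all CKO libraries, *Ccdc88c* at 18.4 (10.3 to 30.4) against 35.4 and *Lix1* at 7.37 (2.71 to 16.05) against 13.1. These differences were not tested. Without library 8 the *Nr5a2* level was not set apart from that of the other nuclei at either minimum, and that of *Mmrn1* was higher at the lower minimum only. As this removal takes out 7 of the 9 *Nr5a2* UMIs, it does not show that retinal nuclei with EC transcripts lack the gene.

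Promoter sequences are shown because the 5 genes share a high CKO over control ratio in ECs. RefSeq's table for GRCm38.p6 holds 5 promoters of 4 of the genes, each 250 bases before to 50 after a start. *Ccdc88c* is not shown. Their positions on GRCm39, from an exact match, are chr1:136881319-136881618 and chr1:136888137-136888436 (minus strand) for *Nr5a2*, chr17:17622698-17622997 for *Lix1*, chr6:60921051-60921350 for *Mmrn1* and chr5:21381027-21381326 for *Gsap* (plus strand). The *Mmrn1* window lies within the gene, 159 bases from the nearest annotated start, and the *Gsap* window overlaps no exon and lies 9706 bases from the nearest start. The windows other than that of *Gsap* overlap an annotated exon. Capitals mark matches, on either strand, to an E-box (CANNTG), to the letters GGAATG of TEAD factors or to the ETS core CCGGAA.

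Nr5a2 promoter 1: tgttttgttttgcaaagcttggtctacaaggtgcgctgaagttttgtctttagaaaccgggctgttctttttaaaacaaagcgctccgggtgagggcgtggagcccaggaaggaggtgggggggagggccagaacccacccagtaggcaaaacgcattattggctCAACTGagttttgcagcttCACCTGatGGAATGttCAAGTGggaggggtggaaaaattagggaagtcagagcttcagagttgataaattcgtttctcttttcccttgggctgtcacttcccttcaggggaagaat
Nr5a2 promoter 2: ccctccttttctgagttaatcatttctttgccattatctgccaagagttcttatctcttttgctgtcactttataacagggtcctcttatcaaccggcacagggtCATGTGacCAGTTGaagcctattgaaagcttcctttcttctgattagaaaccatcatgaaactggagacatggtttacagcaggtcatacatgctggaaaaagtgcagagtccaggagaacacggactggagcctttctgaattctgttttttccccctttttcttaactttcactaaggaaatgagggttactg
Lix1 promoter: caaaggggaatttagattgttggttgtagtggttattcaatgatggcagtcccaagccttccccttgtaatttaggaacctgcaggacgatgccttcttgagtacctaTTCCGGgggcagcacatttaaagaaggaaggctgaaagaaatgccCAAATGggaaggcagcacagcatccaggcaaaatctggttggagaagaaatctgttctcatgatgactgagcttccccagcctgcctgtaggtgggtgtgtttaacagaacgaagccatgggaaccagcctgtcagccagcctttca
Mmrn1 promoter: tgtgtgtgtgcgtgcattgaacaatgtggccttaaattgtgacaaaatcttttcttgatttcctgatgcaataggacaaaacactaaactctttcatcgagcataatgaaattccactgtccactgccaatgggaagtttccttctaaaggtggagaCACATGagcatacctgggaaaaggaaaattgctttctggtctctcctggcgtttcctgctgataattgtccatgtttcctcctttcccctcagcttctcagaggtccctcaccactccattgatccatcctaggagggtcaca
Gsap promoter: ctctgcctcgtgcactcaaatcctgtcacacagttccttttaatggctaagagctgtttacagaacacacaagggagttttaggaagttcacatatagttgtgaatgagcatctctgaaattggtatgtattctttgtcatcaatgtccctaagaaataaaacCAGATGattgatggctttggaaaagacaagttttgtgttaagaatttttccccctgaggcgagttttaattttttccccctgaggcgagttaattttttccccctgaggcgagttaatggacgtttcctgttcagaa

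The NR5A half-site AAGGTCA and the SMAD box GTCTG, searched on both strands, matched in 0 of the 5 windows, which says only that these letters are not there. Of 32851 promoters in the table, 4.72% hold AAGGTCA, 49.6% GTCTG, 14.9% CCGGAA, 72.3% CANNTG and 14.7% GGAATG. The first *Nr5a2* promoter has 3 E-box matches and 1 match to GGAATG, and the second has 2 E-box matches. The *Lix1* promoter has 1 E-box match and 1 match to CCGGAA, read on the reverse strand, and those of *Mmrn1* and *Gsap* have 1 E-box match each. No motif searched other than the E-box, which most promoters hold, was found in more than 1 of these windows.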

How the data were processed

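The deposited values are UMI counts for each gene and nucleus, which the authors obtained with PIPseeker and cleaned of background RNA (CellBender) and doublets (SOLO), with a cell type label for every nucleus. Mixed nuclei were also taken out by hand, as were some clusters in which several nuclei came from CKO libraries 4 and 5 of the retina. Their methods name an index of GRCm39, whereas the submitters' processing notes name mm10 and Seurat. No nucleus was left out here. Counts were summed over the nuclei of a label and a library and divided by their total (CPM). Ratios have exact conditional binomial intervals, levels exact Poisson and shares exact binomial intervals, all at 95% and for counting error only. Thinning drew 500, 1000 or 2000 UMIs per nucleus without replacement (seed 20).

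Retinal sums were tested with edgeR 4.0.16 (filterByExpr, TMM, quasi-likelihood test, kit version as covariate, Benjamini-Hochberg adjustment over all genes of a label, threshold 0.05), with DESeq2 1.42.0 as an alternative, in R 4.3.3. The SE of a log2 difference was taken from the test statistic. As there is 1 control library, its spread was taken to be that of the CKO group, and p-values measure the spread between libraries. The study declares biological replicates but does not say which animals are behind each retinal library, so part of this spread may be technical. Other steps used Python 3.11.15, numpy 2.4.6, pandas 2.3.3, scipy 1.17.1 and matplotlib 3.10.9. The tests were checked on simulated data.

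The genes, the marker lists and the gene lists were chosen with earlier results of these data known. Named were the 5 genes, the other 5 of the 10 highest EC ratios, *Mki67*, *Top2a*, *Tgfbr1*, *Tgfbr2*, *Xist*, listed genes with an EC ratio above 2 or below 0.5 and examples for the counts, and the genes most like each of the 5 by pattern (5 for *Nr5a2*, 3 for the others) or by co-detection with *Nr5a2* (5). The shares by depth bin, the UMIs per nucleus, the part of each gene's UMIs in ECs, the unthinned levels by cycling state, the pericyte markers and the shares of all genes with the control outside the CKO range or with an interval apart from 1, the vessel markers at other depths and the order of genes by means over nuclei were added after seeing the data. Coordinates of genes are from the GENCODE annotation of GRCm39.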

Additional observations from a re-analysis of the deposited data

Results flagged for a closer look

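In ECs each of the 5 genes was higher in the CKO library, and 12 levels in other labels were lower there with an interval of the ratio under 1. None of these differences between labels was tested. Another 8 levels were higher in the CKO library with an interval above 1: *Nr5a2* in Glut_5 (0 and 2 UMIs), *Mmrn1* in vSMCs (14.97), *Gsap* in Glut_5 (9.115) and *Ccdc88c* in oligodendrocytes (4.26), vSMCs (2.69), GABA_9 (1.53), Glut_0 (1.37) and CP_6 (1.26). Over all genes with a UMI in the label, 7.44% of ratios had an interval above 1 and 7.6% below it, and with at least 20 UMIs 12.5% and 15.7%. In Glut_1 the share of all genes with an interval below 1 was 16.01%, or 25.8% with at least 20 UMIs. *Nr5a2* had a CKO over control ratio of 0.128 in Glut_0 (11 and 1 UMIs) and 0 in Glut_1 (15 and 0 UMIs), and *Mmrn1* 0 in Glut_1 (9 and 0 UMIs). *Lix1* had 0.889 in Glut_0, 0.155 in Glut_1 (121 and 12 UMIs), 0.146 in Glut_14 (40 and 4 UMIs) and 0.232 in Glut_20 (51 and 4 UMIs). *Gsap* had 0.374 in Glut_1 (88 and 21 UMIs). *Ccdc88c* had 0.571 in Glut_1, 0.531 in Glut_21, 0.481 in OPCs and 0.432 in astrocytes.

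Markers of other cell types and depth differed in Glut_1 too. The 9 EC markers had 52 UMIs in control Glut_1 nuclei (5 of 9 found, led by *Flt1*) and 1 UMI in CKO ones, and the 8 pericyte markers had 54 (5 of 8, led by *Atp13a5*) and 1. The summed astrocyte markers, all 5 found and led by *Slc1a2*, were at 54.7 and 42.3 CPM. The median nucleus of Glut_1 had 3603 (control) and 1653 (CKO) UMIs, that of Glut_0 5004 and 2314, and that of Glut_14 3562 and 2014. Their part in the lower levels was not tested.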

How the results depend on the processing

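In every alternative that gave a ratio, the EC ratio of each of the 5 genes kept its direction. As the alternatives mostly use the same EC nuclei, the choice of the genes largely fixes this. Of 28 alternative values, 20 lay within the counting interval of the first. Among these was *Nr5a2* at 67.4 (34 to 156.8) in EC nuclei with at least 1000 UMIs, on 8 and 641 UMIs. The other 8 values lay outside the first interval. With only EC nuclei free of pericyte UMIs the ratio was 20.6 for *Nr5a2*, 4.42 for *Mmrn1* and 35.4 for *Gsap*, each on 1 to 4 control UMIs and with an interval of its own that held the first ratio, and *Lix1* and *Ccdc88c* gave no value. As a mean over nuclei, an alternative chosen after seeing the data, it was 18.6 for *Nr5a2* and 35.7 for *Ccdc88c*. With 28.5 for *Lix1*, which lay within its first interval, the order of the genes turned. By these means 3 of the 5 genes were among the 10 highest. With nuclei of any label that had UMIs of at least 2 EC markers it was 4.11 for *Lix1*, 5.68 for *Gsap* and 2.44 for *Ccdc88c*. The cause of these shifts was not tested. A minimum of 100 UMIs gave 100 genes above 4-fold and 3 of the 5 genes among the 10 highest, and a minimum of 400 UMIs gave 20 and 1, since *Mmrn1*, *Gsap*, *Lix1* and *Ccdc88c* have under 400 UMIs. The place of the genes among the highest ratios therefore depends on this minimum and on how nuclei are weighted.

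For pairs, 48 of 50 alternative values lay within the first interval. On 500 UMIs *Nr5a2* with *Mmrn1* was at 0.764, on 3 nuclei, and *Nr5a2* with *Ccdc88c* at 0. Nuclei with 2 or more genes ranged from 1.12 to 1.59. For cycling nuclei 14 of 15 values lay within the interval, the exception being 1.69 for *Nr5a2* on 500 UMIs. For tip markers each value at other depths or over all draws lay within the first interval. The intervals for *Nr5a2* and *Lix1* at 500 and 2000 UMIs held 1, however, as did that for *Gsap* at 2000 UMIs.

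In the retina 0 fits of the 5 genes passed the threshold by edgeR or DESeq2 under any alternative, with 0 or 1 at an unadjusted p under 0.05. All genes called were 1106 with DESeq2, 11 without a filter, 7 with batch as covariate, 8 without covariate and 71 in the control's batch alone, where 3 CKO libraries remain. The cause of these differences was not tested. Of 159 alternative log2 differences 147 kept their sign. The others were 0.025 with batch and 0.022 in the control's batch for *Gsap* in CBC, and -0.028 without a filter, -0.023 with batch and -0.034 in the control's batch for *Gsap* in GABA_AC. For *Lix1* in HC they were 0.0061 with DESeq2, 0.0043 without a filter, 0.070 with batch, 0.22 without covariate and 0.10 without CKO libraries 4 and 5. For *Nr5a2* in RGC they were 0.061 with batch and 0.056 without covariate. The cause was not tested. *Nr5a2* was tested in 1 label, and in 0 without CKO library 4, an alternative chosen after seeing the data.

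In CKO retinal nuclei with at least 2 EC markers *Nr5a2* and *Mmrn1* were each at 1.85 CPM, and with at least 4 they were at 24.2 and 20.8 CPM, on 8 nuclei. All 7 *Nr5a2* and 6 *Mmrn1* UMIs of these 8 nuclei lay in CKO library 8. CKO library 8 was left out after seeing that it held the most *Nr5a2* UMIs of the nuclei with 3 markers, so a lower level is built in. Without it they were at 1.43 and 0.717 CPM with 3 markers, and at 1.36 and 1.25 CPM with 2, an alternative chosen likewise. No paired analysis was possible because the control group is a single library in either tissue. Depth limits values for *Nr5a2* and *Mmrn1* outside ECs, where most labels hold under 3 UMIs.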
